A study of Mus musculus with 2 samples.

Results

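Metallothioneins are small, cysteine-rich proteins that bind zinc and copper, and the cell makes more of them when free zinc or other metals rise. MTF1 is the zinc-sensing transcription factor that switches their genes on. ZnT transporters (Slc30a genes) move zinc or manganese out of the cytosol, and ZIP transporters (Slc39a genes) bring them in. Red cell precursors need these metals for haem synthesis, for carbonic anhydrase and for the zinc finger factors that run the lineage. The 7 genes described here are Mt1 and Mt2, their activator Mtf1, the exporters Slc30a10 and Slc30a1, and the importers Slc39a8 and Slc39a10. They were chosen by name and with earlier results of the same cells known, out of 17608 genes in the deposited table. Their levels between pools are therefore described and not tested.

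Red cell progenitors low in the surface proteins CD71 and CD24 had been taken from C57BL/6 fetal livers at E14.5, in both libraries. A CFU-E is the later and a BFU-E the earlier colony-forming red cell progenitor. The hashed library (antibody barcodes tell pooled isolations apart) held the later pools FACS CFU-E and PE-high and the earlier pools FACS BFU-E and PE-low, where FACS means sorting by fluorescence. A magnet method is named beside it, but not what PE or CS stands for. The CITE-seq library (barcoded antibodies against CD117 and CD71) held the pools CS CFUE and CS BFUE and 2136 cells with no pool name. How cells of that library were given pool names was not stated. A culture of 10 days with 100 uM dexamethasone, or with methanol alone, is also described, and the sources used here leave unsaid whether the sequenced cells had been through it.

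Each pool is 1 sample, and its cells are not replicates. All intervals below are 95% intervals that cover counting error only, and no p-value is given. The pools held 167 cells and 6232350 UMIs (unique molecular identifiers, 1 per captured transcript) in FACS CFU-E, and 233 cells and 7374761 UMIs in FACS BFU-E. PE-high had 294 cells and 11003022 UMIs, and PE-low had 208 cells and 7084148 UMIs. CS CFUE had 195 cells and 7317861 UMIs, and CS BFUE had 122 cells and 2968491 UMIs. The CITE-seq cells with no pool name held 62266906 UMIs. Levels are given as CPM, the UMIs of a gene in each 1000000 UMIs of a pool. They come from 3′ ends and are not scaled by length, so each gene is compared between pools and not with other genes.

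The stage gene lists ran with the pool names. Of the genes of the later progenitors, such as Klf1 and Hemgn, 18 of 19, 19 of 20 and 20 of 20 were higher. These were past 1.5-fold in the later pool of the FACS, PE and CS pairs, and 12 of 12 early progenitor genes were lower in all 3. Among all genes compared, 9.76%, 7.24% and 11.4% were higher and 20.1%, 16.6% and 19.8% lower. The lists were chosen with earlier results of the same cells known, so these counts do not test the pool names. The earlier pools also held cells with white cell genes, which bears on every comparison by stage. Cells with 10 or more UMIs of 6 granulocyte progenitor genes (Mpo, Elane, Prtn3, Ctsg, Ms4a3 and Cebpe) numbered 0 in FACS CFU-E, against 77 in FACS BFU-E. They numbered 18 in PE-high and 49 in PE-low, and 3 in CS CFUE and 35 in CS BFUE. Hepatocyte genes marked the CITE-seq library instead. The sum of 9 of them was 166 CPM in CS CFUE, 35.0 CPM in CS BFUE and 164 CPM in the cells with no pool name, against 2.73 to 4.07 CPM in the 4 hashed pools, where Ahsg and Apob were at 0 in all 4. In CS CFUE 2 cells held 78.3% of these UMIs, and in the cells with no pool name 2 cells held 75.5%.

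The sequences upstream of the starts used are given before any level is read. MTF1 binds metal response elements, whose core has the forms TGCACNC and TGCGCNC. Both were searched on both strands of the 250 bases before each annotated start used (RefSeq, GRCm38.p6, the same assembly as mm10). Matches are in capitals. The Mt2 and Slc30a10 windows are shown whole because each held 3 matches.

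Mt2 (chr8:94172368-94172617, plus strand): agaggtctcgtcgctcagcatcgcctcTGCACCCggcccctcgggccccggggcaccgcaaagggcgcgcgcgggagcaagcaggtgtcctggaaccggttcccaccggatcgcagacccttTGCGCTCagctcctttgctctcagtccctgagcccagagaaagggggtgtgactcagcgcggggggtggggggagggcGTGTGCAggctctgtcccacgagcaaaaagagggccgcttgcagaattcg

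Slc30a10 (chr1:185454598-185454847, plus strand): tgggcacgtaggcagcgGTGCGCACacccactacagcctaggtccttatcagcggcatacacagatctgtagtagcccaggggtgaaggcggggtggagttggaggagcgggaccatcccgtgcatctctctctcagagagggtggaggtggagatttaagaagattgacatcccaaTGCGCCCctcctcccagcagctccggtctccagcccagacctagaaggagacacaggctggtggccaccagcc

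For Mt1, Slc30a1 and Slc39a8, which held 1 match each, the match is shown with 10 bases on either side.

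Mt1 (chr8:94179056-94179082, plus strand): ggtcccgctgTGCACACtggcgctcca

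Slc30a1 (chr1:191906728-191906754, plus strand): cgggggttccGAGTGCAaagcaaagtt

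Slc39a8, second annotated start (chr3:135825628-135825654, plus strand): tatctctaaaGGGTGCAgggcctgatc

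Of the 3 Slc30a10 matches, 2 lie on opposite strands and overlap in the same bases. Of 32851 RefSeq windows of this length, 21.4% held 1 or more matches and 1.26% held 3 or more. With the 50 bases after the start included, the count was 3 for Mt1, 4 for Mt2, 3 for Slc30a10 and 2 for Slc30a1, and 1.97% of all such windows held 3 or more. Of the 3 Mt1 matches, 2 lie after the start used, which is inside the gene span given below. Mtf1, Slc39a10 and the first of the Slc39a8 starts searched had none of these letters in either window. Both Slc39a8 windows lie inside the span of that gene, which begins at chr3:135816882, and the bases before the span were not searched. The counts depend on the starts used and do not rank the genes. A match is a string of letters and not a shown binding site. Mt1 (ENSMUSG00000031765, chr8:94178883-94180327) and Mt2 (ENSMUSG00000031762, chr8:94172618-94173567) are neighbours, 5315 bases apart.

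Both metallothioneins were higher in the later than in the earlier progenitors of every isolation, and Mt2 by more than Mt1. Mt1 stood at 981 CPM in FACS CFU-E and 479 CPM in FACS BFU-E. It stood at 947 CPM in PE-high and 523 CPM in PE-low, and at 2138 CPM in CS CFUE and 962 CPM in CS BFUE. The ratios were 2.05 (1.97 to 2.14) for the FACS pools, 1.81 (1.74 to 1.88) for the PE pools and 2.22 (2.14 to 2.31) for the CS pools. All 3 later pools stood above their own earlier pool, while CS BFUE lay between the 2 later pools of the hashed library.

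Mt2 was at 414 CPM in FACS CFU-E and 76.6 CPM in FACS BFU-E. It was at 367 CPM in PE-high and 111 CPM in PE-low, and at 840 CPM in CS CFUE and 191 CPM in CS BFUE. Its ratios were 5.41 (4.94 to 5.93), 3.32 (3.08 to 3.59) and 4.41 (4.04 to 4.81) for the FACS, PE and CS pools. Here no earlier pool reached any later one. Mt3 had 1 UMI in FACS CFU-E and none in the other 5 pools, and Mt4 was at 0 in all 6.

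**Figure D1:**
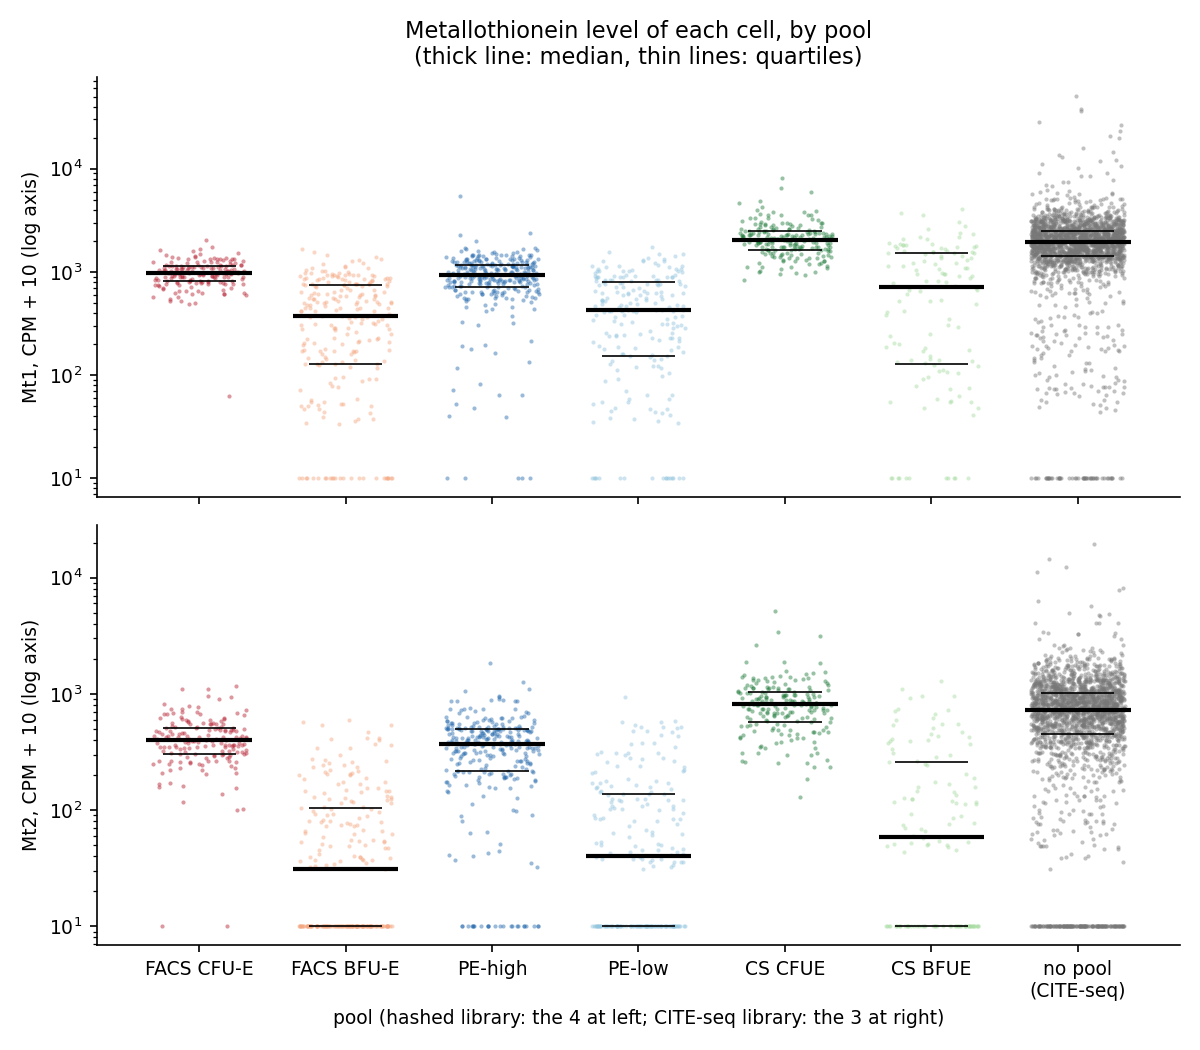
Mt1 (top) and Mt2 (bottom) in each cell, as CPM + 10 on a log axis, by pool, with the median as a thick line and the quartiles as thin lines. The Mt1 quartiles lie close together in the later pools and far apart in the earlier ones, cells with no Mt1 UMI number 11 to 25 in each earlier and 0 to 5 in each later pool, and 17 cells with no pool name lie above 10000 CPM of Mt1.

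The white cell-marked cells of the earlier pools were poor in both metallothioneins. In FACS BFU-E the 77 granulocyte-marked cells had 104 CPM of Mt1 and 4.999 CPM of Mt2, and the 49 in PE-low had 84.9 CPM and 6.29 CPM. With cells carrying 10 or more UMIs of granulocyte or monocyte genes left out of all pools, the Mt1 ratio was 1.54 (1.47 to 1.60) for the FACS pools, 1.48 (1.43 to 1.54) for the PE pools and 1.69 (1.62 to 1.76) for the CS pools. With cells left out for mast, megakaryocyte, lymphoid, endothelial and hepatocyte genes too, the Mt1 log2 ratio was 0.48, 0.41 and 0.54, short of 1.5-fold in all 3 pairs. That rule kept 84 of 233 cells of FACS BFU-E. Egfl7 alone gave 822 of the 823 UMIs of the endothelial genes in FACS CFU-E. With Egfl7 and Trf not used as markers, 146 cells of FACS BFU-E were kept and the CS ratio was past 1.5-fold. Mt2 kept ratios of 3.87 (3.53 to 4.25), 2.66 (2.46 to 2.87) and 3.27 (2.99 to 3.57) without the granulocyte- or monocyte-marked cells.

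The proportion of the 2 metallothioneins differed by stage as well. There were 2.37 (2.26 to 2.48) Mt1 UMIs per Mt2 UMI in FACS CFU-E and 6.25 (5.71 to 6.84) in FACS BFU-E. The same proportion was 2.58 (2.49 to 2.68) in PE-high and 4.73 (4.38 to 5.12) in PE-low, and 2.54 (2.47 to 2.62) in CS CFUE and 5.04 (4.61 to 5.53) in CS BFUE. The 3 later pools thus lay between 2.37 and 2.58 although the summed share of Mt1 and Mt2 among all UMIs was 0.298% in CS CFUE, 0.131% in PE-high and 0.140% in FACS CFU-E.

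Mtf1 (ENSMUSG00000028890, chr4:124802549-124849800), the activator, was higher in the later pool of the FACS and PE pairs. It was at 50.4 CPM in FACS CFU-E and 32.3 CPM in FACS BFU-E, at 45.2 CPM in PE-high and 25.4 CPM in PE-low, and at 26.9 CPM in CS CFUE and 22.9 CPM in CS BFUE. The ratios were 1.56 (1.31 to 1.86), 1.78 (1.496 to 2.12) and 1.18 (0.888 to 1.57). The CS interval includes no difference, so that a difference by stage was not detectable there at this depth of 197 and 68 UMIs. Without the granulocyte- or monocyte-marked cells the ratios were 1.42 (1.18 to 1.72), 1.69 (1.40 to 2.05) and 1.23 (0.892 to 1.73), so the FACS ratio was then short of 1.5-fold.

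Slc30a10 (ENSMUSG00000026614, chr1:185454848-185468762) had the highest ratio of the 7 genes in each pair by point value, although in the CS pair its interval overlaps those of Slc39a8 and Mt2. It encodes ZnT10, which exports manganese from the cell, and its loss in people leads to manganese overload with raised red cell counts. It was at 54.4 CPM in FACS CFU-E and 5.56 CPM in FACS BFU-E, at 46.1 CPM in PE-high and 6.35 CPM in PE-low, and at 42.5 CPM in CS CFUE and 5.39 CPM in CS BFUE. The ratios were 9.78 (7.06 to 13.9), 7.25 (5.34 to 10.1) and 7.88 (4.78 to 14.0). Without the granulocyte- or monocyte-marked cells they were 6.86 (4.95 to 9.74), 5.86 (4.31 to 8.17) and 6.56 (3.85 to 12.1). The FACS and CS intervals then overlap those of Slc39a8.

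The share of cells with an Slc30a10 UMI followed the same order. With each cell thinned to 15000 UMIs, it was 53.7% of 164 cells in FACS CFU-E and 4.44% of 225 cells in FACS BFU-E. It was 41.4% of 292 cells in PE-high and 7.32% of 205 cells in PE-low, and 43.1% of 195 cells in CS CFUE and 7.56% of 119 cells in CS BFUE. Unthinned, the shares were 82.6% and 13.7% in the FACS pools, 65.3% and 13.9% in the PE pools, and 74.4% and 9.84% in the CS pools. Granulocyte-marked cells, set beside these by assumption as a background, had an Slc30a10 UMI in 0 of 77 cells of FACS BFU-E. Taken as 3 counts over those cells, this allows a share of up to 3.90%. The share was 2.04% of 49 cells of PE-low, 5.71% of 35 cells of CS BFUE and 0% of 18 cells of PE-high. It was 66.7% of the 3 such cells of CS CFUE, so a marked cell can carry the gene. The median depth was 27208 UMIs in those 77 cells, against 38377 UMIs in FACS CFU-E and 31594 UMIs in all of FACS BFU-E. The 35 marked cells of CS BFUE had a median of 22350 UMIs and the whole pool one of 23449, so the low share in that pool lies near the share in its marked cells.

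Slc30a1 (ENSMUSG00000037434, chr1:191906697-191913248) encodes ZnT1, the zinc exporter of the plasma membrane and a known MTF1 target, and it was scarce in every pool. It had 59 UMIs (9.47 CPM) in FACS CFU-E and 38 UMIs (5.15 CPM) in FACS BFU-E. PE-high had 68 UMIs (6.18 CPM) and PE-low 47 UMIs (6.63 CPM), and CS CFUE had 36 UMIs (4.92 CPM) and CS BFUE 8 UMIs (2.69 CPM). The ratio was 1.84 (1.20 to 2.84) in the FACS pools, 0.932 (0.633 to 1.38) in the PE pools and 1.83 (0.834 to 4.55) in the CS pools. Without the granulocyte- or monocyte-marked cells it was 1.69 (1.07 to 2.73), 0.840 (0.559 to 1.28) and 1.54 (0.677 to 4.11). No common direction can be read from these counts.

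Slc39a8 and Slc39a10, both importers, ran in opposite directions. Slc39a8 (ENSMUSG00000053897, chr3:135816882-135888572) encodes ZIP8, which carries zinc and manganese into cells. It was at 93.1 CPM in FACS CFU-E and 17.1 CPM in FACS BFU-E, at 88.8 CPM in PE-high and 23.2 CPM in PE-low, and at 61.4 CPM in CS CFUE and 9.10 CPM in CS BFUE. The ratios were 5.45 (4.49 to 6.66), 3.84 (3.25 to 4.55) and 6.75 (4.57 to 10.4). Without the granulocyte- or monocyte-marked cells they were 4.19 (3.42 to 5.16), 3.23 (2.72 to 3.85) and 5.46 (3.62 to 8.62).

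Slc39a10 (ENSMUSG00000025986, chr1:46807544-46925776) encodes ZIP10, a zinc importer that MTF1 is known to repress in mouse cells. It was at 13.2 CPM in FACS CFU-E and 29.7 CPM in FACS BFU-E, at 15.8 CPM in PE-high and 28.9 CPM in PE-low, and at 12.6 CPM in CS CFUE and 28.3 CPM in CS BFUE. It was lower by 2.26-fold (1.74 to 2.95), 1.83-fold (1.49 to 2.25) and 2.25-fold (1.65 to 3.06). The 3 earlier pools lay within 28.3 to 29.7 CPM of one another, and the 3 later pools within 12.6 to 15.8 CPM. Without the granulocyte- or monocyte-marked cells the ratio was 0.532 (0.398 to 0.707), 0.576 (0.455 to 0.730) and 0.453 (0.322 to 0.640).

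**Figure D2:**
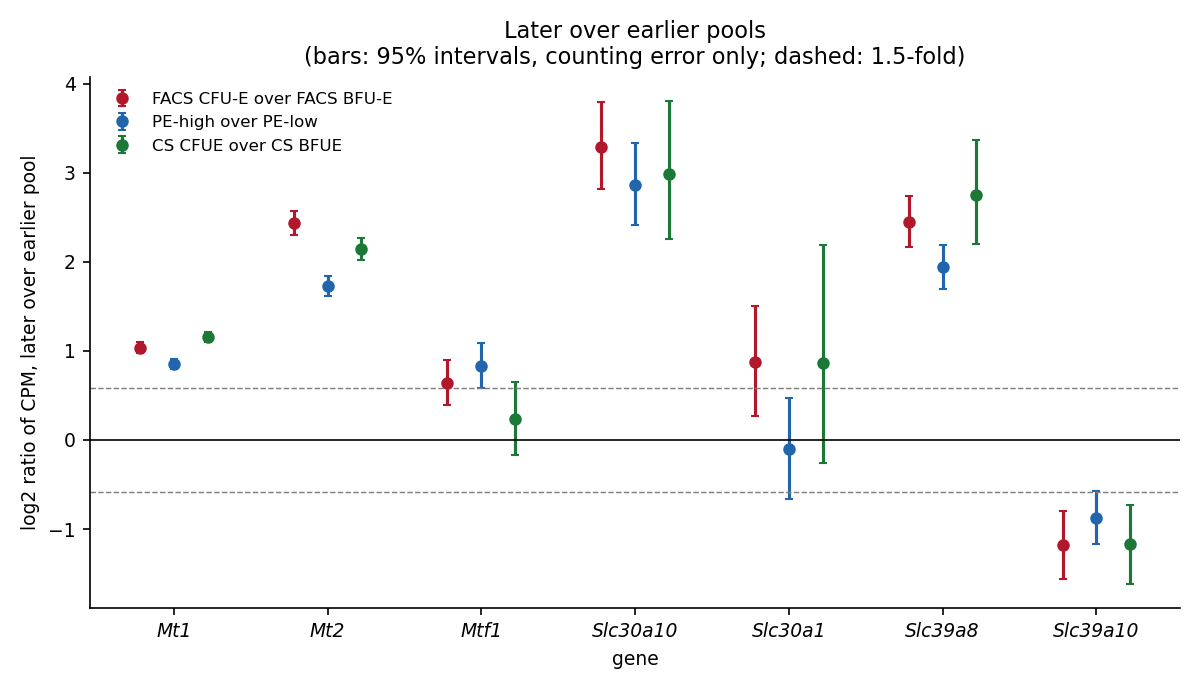
Log2 ratio of CPM between the later and the earlier pool of each isolation for the 7 genes, with 95% intervals for counting error only and dashed lines at 1.5-fold. Slc30a10 lies near 3 in all 3 comparisons, Slc39a10 lies below 0 in all 3, and the Slc30a1 intervals are the widest.

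By the rule used for whole lists (at least 5 CPM in 1 of the 2 pools and a ratio past 1.5-fold), 6 of the 7 genes were higher and 1 was lower in FACS CFU-E than in FACS BFU-E, all cells included. Among all 9009 genes compared there, 9.76% were higher and 20.1% lower. In PE-high against PE-low 5 of 7 were higher and 1 lower, where 7.24% of 8978 genes were higher and 16.6% lower. In CS CFUE against CS BFUE 4 of 6 were higher and 1 lower, where 11.4% of 8892 genes were higher and 19.8% lower. At a stricter floor of 50 CPM and 10% of cells, 5, 3 and 3 of the 7 genes were compared and all were higher, where 9.15%, 5.84% and 10.7% of all genes were higher and 9.58%, 6.94% and 8.77% lower. Of those genes, 3, 1 and 1 entered only through the later pool. The genes were chosen with these values known, so nothing is read from the counts. Another scaling, by the median of ratios, turned 318 higher and 333 lower genes of the FACS pair at 50 CPM into 382 higher and 262 lower.

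Stage was also followed inside the pools, by the share of a cell's UMIs that came from 20 red cell genes outside the 7, such as Klf1 and Hemgn. Cells of a pool were put in 4 equal groups, or quartiles, by that share. Mt1 climbed early and then levelled. From the lowest to the highest quartile it was at 79.1, 290.2, 689 and 744 CPM in FACS BFU-E and at 81.2, 358, 666 and 879 CPM in PE-low. In CS BFUE the quartiles held 153, 463, 1256 and 1789 CPM. In FACS CFU-E the 4 quartiles held 1032, 963, 960.3 and 973 CPM, and no gradient of Mt1 showed there. In PE-high they held 801, 1017, 1011 and 955 CPM, lowest in the lowest quartile and level after it. PE-high also held 18 granulocyte-marked cells with 96.0 CPM of Mt1, and their part in the PE-high quartiles was not tested.

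Slc30a10 differed between the quartiles of the later pools as well. It had 0, 0.611, 4.67 and 14.48 CPM in the quartiles of FACS BFU-E, and 10.3, 35.5, 60.5 and 79.5 CPM in those of PE-high. In FACS CFU-E it had 32.4, 54.0, 67.0 and 63.1 CPM, with no climb between the upper quartiles. Slc39a8 likewise had 3.60 CPM in the lowest quartile of FACS BFU-E and 28.5 CPM in the highest, and 38.2 and 141 CPM at the ends of PE-high. Slc39a10 went the other way, with 41.4 CPM in the lowest and 23.8 CPM in the highest quartile of FACS BFU-E, and 27.9 and 7.16 CPM at the ends of PE-high. In FACS CFU-E it had 13.9, 15.4, 11.7 and 11.7 CPM, with little gradient.

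The lowest quartiles of the earlier pools hold many of the granulocyte-marked cells, so the quartiles were also drawn without cells marked by granulocyte or monocyte genes. Mt1 then stood at 328, 613, 736 and 789 CPM in FACS BFU-E, at 317, 575, 761 and 907 CPM in PE-low and at 447, 1180, 1528 and 1746 CPM in CS BFUE. The gradient of Mt1 started higher and kept its order in these 3 pools. Slc30a10 in the same cells stood at 0.951, 7.16, 3.48 and 18.2 CPM in FACS BFU-E and at 0, 7.01, 5.13 and 17.8 CPM in PE-low. In CS BFUE it stood at 2.16, 1.99, 10.4 and 9.79 CPM. These values rest on 0 to 28 UMIs a quartile and are not in order throughout in any of the 3 pools. Slc39a10 stood at 33.3, 23.1, 19.5 and 25.2 CPM in the same cells of FACS BFU-E and at 34.8, 31.9, 18.3 and 20.3 CPM in those of PE-low, which is highest in the lowest quartile but not in order throughout. Mt1 UMIs per Mt2 UMI in these unmarked cells ran over 14.4, 7.55, 5.26 and 4.97 in FACS BFU-E and over 11.5, 7.24, 6.01 and 3.06 in PE-low. In CS BFUE they were 7.96, 8.37, 5.05 and 3.73.

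**Figure D3:**
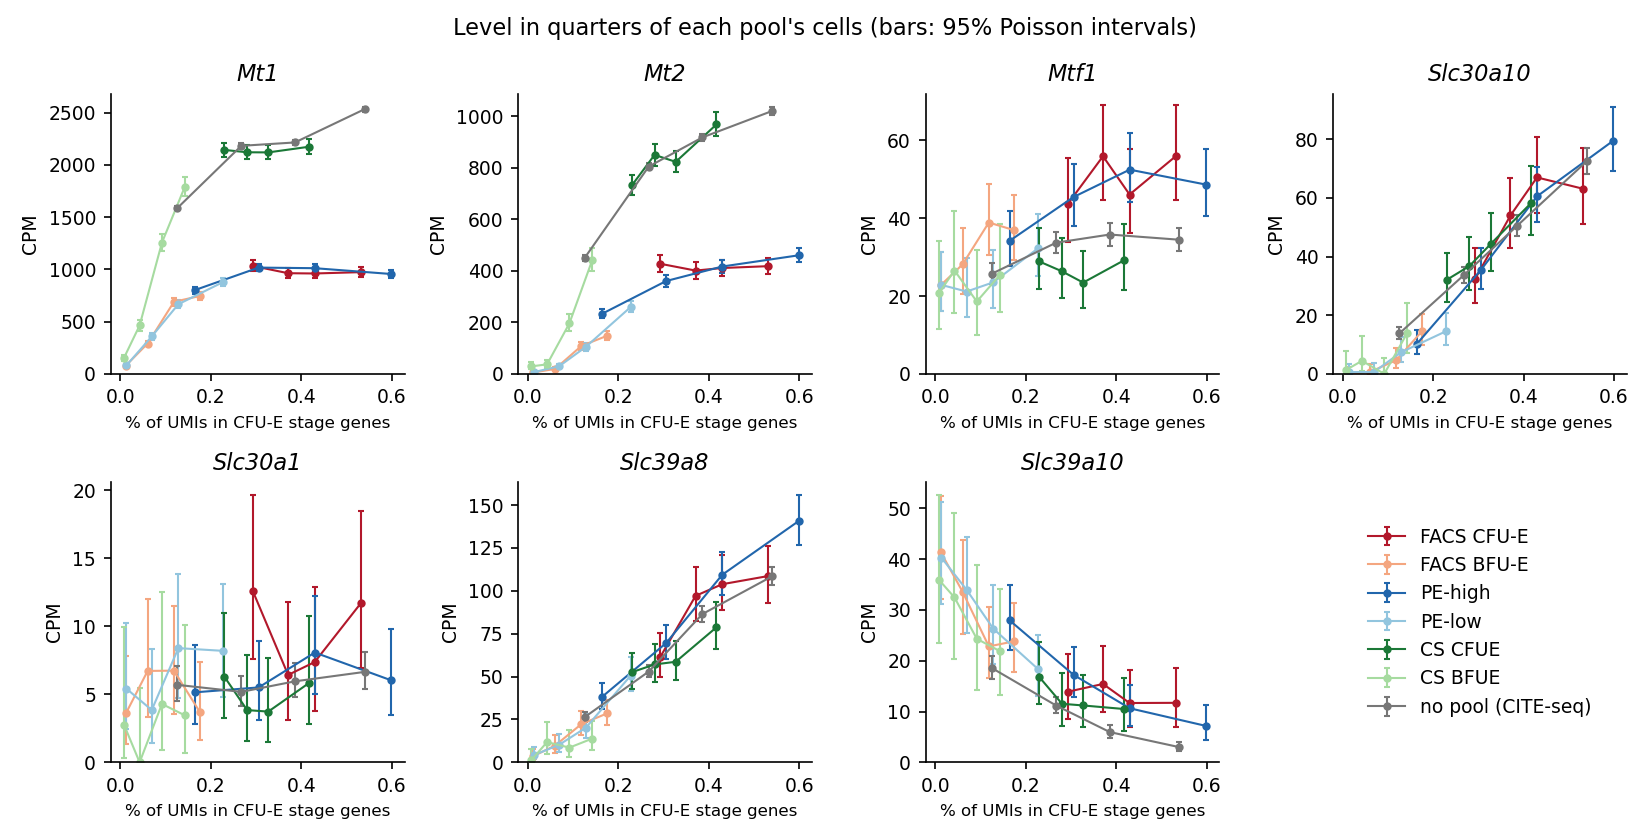
CPM of each gene (vertical axis) in the quartiles of each pool, placed by the percentage of UMIs in the stage genes (horizontal axis), with 95% Poisson intervals. Mt1 and Mt2 form 2 levels, the CITE-seq pools above the hashed pools, whereas the Slc30a10 points of both libraries lie along 1 course and Slc30a1 shows none.

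The CITE-seq cells with no pool name gave the longest course, and were divided in 10 groups (deciles) of 213 or 214 cells. Globin transcripts, summed over 7 genes, were at 81.6 CPM in the lowest decile and 19611 CPM in the highest. Slc30a10 was at 1.53 CPM in the lowest decile, 37.8 CPM in the fifth and 81.4 CPM in the highest. Slc39a8 was at 9.62, 63.4 and 122 CPM in the same deciles. Slc39a10 was at 26.0, 9.46 and 2.21 CPM there. Mt1 was at 721 CPM in the lowest decile, 1931 CPM in the second and between 2083 and 2739 CPM in the rest. The 17 cells with over 10000 CPM of Mt1 are in this group and held 6.33% of its Mt1 UMIs. Their part in the decile values was not tested. The lowest decile also held 1496 CPM of the 9 hepatocyte genes, against 32.1 to 221 CPM in the others, and their part in its values was not tested. The group also held 87 granulocyte-marked and 122 monocyte-marked cells, with 230.4 and 274 CPM of Mt1, 1.93 and 3.68 CPM of Slc30a10 and 22.2 and 25.02 CPM of Slc39a10. Their part in the lowest decile was not tested.

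Relative to its level, the spread of Mt1 between all single cells of a pool, marked ones included, was wider in the earlier than in the later pools. The quartiles were at 800 and 1130 CPM in FACS CFU-E and 118 and 735 CPM in FACS BFU-E. They were at 709 and 1159 CPM in PE-high and 143 and 786 CPM in PE-low, and at 1616 and 2468 CPM in CS CFUE and 117 and 1521 CPM in CS BFUE. The coefficient of variation was 27.5% in FACS CFU-E, where counting alone would give 17.1%, and 84.4% in FACS BFU-E, where counting would give 26.9%. Cells with no Mt1 UMI numbered 0 of 167 in FACS CFU-E and 25 of 233 in FACS BFU-E, 5 of 294 in PE-high and 17 of 208 in PE-low, and 0 of 195 in CS CFUE and 11 of 122 in CS BFUE. Without the granulocyte- or monocyte-marked cells, 97.4% of 156 cells of FACS BFU-E had an Mt1 UMI. The same held for 98.7% of 154 unmarked cells of PE-low, 94.3% of 87 of CS BFUE and 100% of 274 of PE-high. The part of the marked cells in the quartiles and the coefficients of variation was not tested.

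Mt1 and Mt2 varied together from cell to cell. As a description, their Spearman correlation across cells was 0.53 in FACS CFU-E, against 0.76 in FACS BFU-E, 0.59 in PE-high and 0.77 in PE-low, and 0.56 in CS CFUE and 0.84 in CS BFUE. Cells of a pool share a library, and their depths differ. Over all cells, Mt1 tracked the stage share of the cell in the earlier pools (0.81 in FACS BFU-E, 0.83 in PE-low and 0.79 in CS BFUE). It hardly did in the later ones, where the values were -0.11 in FACS CFU-E, 0.13 in PE-high and -0.03 in CS CFUE. The earlier pools hold more of the white cell-marked cells, which are poor in Mt1. The part of these cells in the correlations was not tested. Mtf1 and Mt1 correlated between -0.09 and 0.15 over the 6 pools. With means of 0.557 to 1.88 Mtf1 UMIs per cell, weak values of this kind are no finding.

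Among 7899 genes, those most like Mt1 by the mean of the correlations within the 6 pools were Mt2 (0.68), Prdx6 (0.50), Asns (0.46), Blvrb (0.45) and Gclm (0.44). Prdx6 is a peroxiredoxin, Asns makes asparagine, Blvrb reduces biliverdin and Gclm is a subunit of the enzyme that starts glutathione synthesis. For Mt2 the list was Mt1, Gclm (0.45), Asns (0.44), Blvrb (0.44) and Alad (0.43), a zinc enzyme of haem synthesis. For Slc30a10 it was Prdx2 (0.31), Cpox (0.30), Blvrb (0.29), Rhd (0.29) and Hebp1 (0.29), in which Cpox is a haem synthesis enzyme and Rhd one of the 20 stage genes. All of these correlations were above 0 in each of the 6 pools, but they differed widely between pools: that of Blvrb with Mt1 ran over 0.056 to 0.79 and that of Gclm with Mt1 over 0.064 to 0.75. The earlier pools hold the white cell-marked cells poor in Mt1, and their part in these means was not tested.

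The other zinc transporters put the 7 genes in context. Among all genes with 5 CPM in 1 pool, 9.76%, 7.24% and 11.4% were higher in the FACS, PE and CS pairs. The lower shares were 20.1%, 16.6% and 19.8%. Nothing is read from the counts of lists that hold any of the 7 genes, which were chosen with these values known. Of the zinc exporters with at least 5 CPM, 2 of 6 were higher and 0 lower in FACS CFU-E than in FACS BFU-E (Slc30a10 and Slc30a1). In PE-high against PE-low 1 of 6 was higher (Slc30a10) and 1 lower, Slc30a7, which loads zinc into the secretory pathway, at 6.54 CPM in PE-high and 10.7 CPM in PE-low, a ratio of 0.610 (0.436 to 0.853). In CS CFUE against CS BFUE 1 of 5 was higher, again Slc30a10. The exporters of inner compartments were mostly within 1.5-fold. Slc30a5, which serves the secretory pathway, stood at 32.7 CPM in FACS CFU-E and 36.2 CPM in FACS BFU-E, at 29.2 CPM in PE-high and 33.7 CPM in PE-low, and at 22.7 CPM in CS CFUE and 23.6 CPM in CS BFUE. The median log2 ratio of the exporters was -0.13, 0.07 and 0.39 in the FACS, PE and CS pools, beside -0.04, -0.04 and -0.03 over all genes compared.

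Zinc importers ran both ways. Among all genes compared, 9.76%, 7.24% and 11.4% were higher and 20.1%, 16.6% and 19.8% lower in the FACS, PE and CS pairs, and the list counts below stand beside these shares. In the FACS pools 2 of 8 were higher (Slc39a8 and Slc39a3) and 4 lower (Slc39a1, Slc39a6, Slc39a10 and Slc39a11). In the PE pools 1 of 9 was higher (Slc39a8) and 3 lower, and in the CS pools 2 of 9 were higher (Slc39a8 and Slc39a9) and 3 lower, the 3 being Slc39a6, Slc39a10 and Slc39a11 both times. The Slc39a9 ratio was 1.54 (0.932 to 2.66), which includes no difference. Slc39a6 encodes ZIP6, the closest relative of ZIP10. It was at 5.62 CPM in FACS CFU-E and 18.6 CPM in FACS BFU-E, at 6.18 CPM in PE-high and 12.3 CPM in PE-low, and at 3.28 CPM in CS CFUE and 13.1 CPM in CS BFUE. Slc39a7 encodes ZIP7, which releases zinc from the endoplasmic reticulum, and its ratio was 0.929 (0.783 to 1.10), 1.00 (0.868 to 1.16) and 0.918 (0.718 to 1.18). The median log2 ratio of the importers was -0.65, -0.02 and -0.35.

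**Figure D4:**
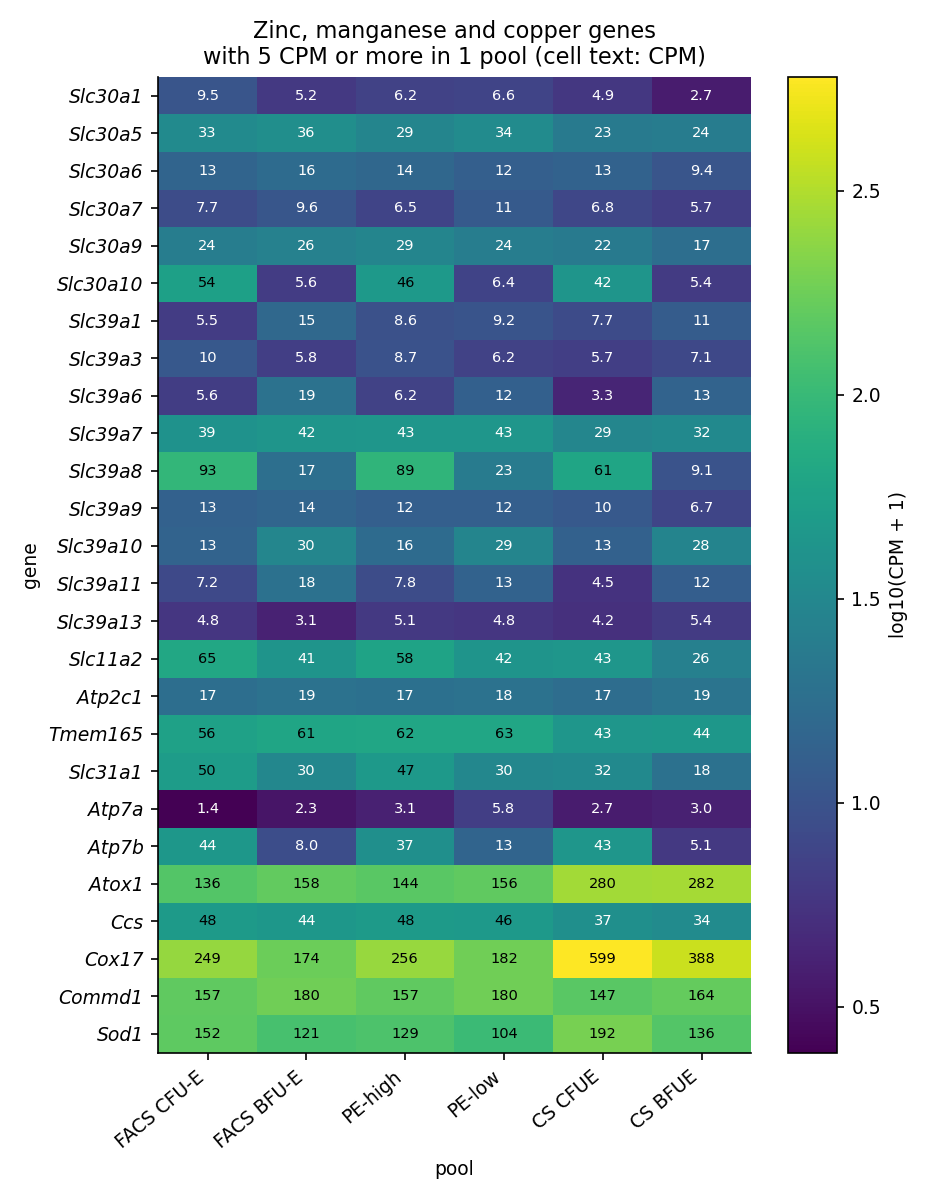
CPM of zinc, manganese and copper genes with 5 CPM or more in at least 1 of the 6 pools, as numbers and as colour on a log10(CPM + 1) scale. Slc30a10, Slc39a8 and Atp7b alternate between bright later and dark earlier pools, and Cox17 and Atox1 are brightest in the 2 CS pools.

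Manganese and copper transport held genes past 1.5-fold higher in the later pools, beside the same shares of all genes. Slc11a2 encodes DMT1, which carries iron and manganese. It was at 65.0 CPM in FACS CFU-E and 41.5 CPM in FACS BFU-E, at 58.0 CPM in PE-high and 41.6 CPM in PE-low, and at 42.8 CPM in CS CFUE and 25.9 CPM in CS BFUE. Its ratios were 1.57 (1.35 to 1.82), 1.39 (1.21 to 1.60) and 1.65 (1.28 to 2.14), and the PE ratio was short of 1.5-fold. The Golgi manganese genes Atp2c1 and Tmem165 had ratios between 0.861 and 0.987 in the 3 comparisons. Of the manganese list, 3 of 5, 2 of 5 and 3 of 5 genes were higher and 0 lower. That list draws on the 7 genes, which were chosen with these values known, so nothing is read from its counts. Among copper genes 2 of 7, 2 of 8 and 3 of 7 were higher and 0, 1 and 0 lower, the lower one being Atp7a. Atp7b, the copper-exporting ATPase best known from the liver, was at 44.1 CPM in FACS CFU-E and 8.00 CPM in FACS BFU-E. It was at 37.2 CPM in PE-high and 13.4 CPM in PE-low, and at 43.3 CPM in CS CFUE and 5.05 CPM in CS BFUE. Slc31a1, the copper importer CTR1, had ratios of 1.67 (1.40 to 1.99), 1.55 (1.32 to 1.83) and 1.78 (1.32 to 2.44).

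Of 7 genes listed as MTF1 targets, 5, 4 and 4 were higher and 1 lower in each comparison, out of 7, 7 and 6 compared. The list holds Mt1, Mt2, Slc30a1 and Slc39a10, which were chosen with these values known, so nothing is read from its counts. Slc40a1, the iron exporter ferroportin, was 3.78 (2.94 to 4.88), 2.09 (1.70 to 2.60) and 3.79 (2.54 to 5.86) times as high, and Gclc, the catalytic subunit of glutathione synthesis, 2.37 (2.02 to 2.79), 1.71 (1.49 to 1.98) and 2.06 (1.60 to 2.69) times. The 1 lower gene was Slc39a10. Of the genes that glucocorticoids raise, 1 of 8, 1 of 6 and 1 of 5 were higher and 6, 3 and 3 lower. Fkbp5, a sensitive reporter of the glucocorticoid receptor, was at 11.6 CPM in FACS CFU-E and 29.2 CPM in FACS BFU-E, at 12.1 CPM in PE-high and 30.1 CPM in PE-low, and at 7.24 CPM in CS CFUE and 16.8 CPM in CS BFUE. Metallothioneins are also known glucocorticoid targets, and the part of glucocorticoids in their levels was not tested. Immediate early genes, which respond to cell handling, summed to 234 CPM in FACS CFU-E and 885 CPM in FACS BFU-E, to 156 CPM in PE-high and 197 CPM in PE-low, and to 136 CPM in CS CFUE and 225 CPM in CS BFUE. Of the glucocorticoid list, Zfp36 stood at 1.60 CPM in FACS CFU-E and 30.5 CPM in FACS BFU-E, and Dusp1 at 8.66 CPM and 27.3 CPM there. Dusp1 ran the other way in the PE pair, at 8.27 CPM in PE-high and 3.95 CPM in PE-low, a ratio of 2.09 (1.36 to 3.32), and its CS ratio was 1.06 (0.453 to 2.78). The part of handling in this was not tested.

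The list counts here and in the paragraph above stand beside the shares of all genes compared. These were 9.76%, 7.24% and 11.4% higher and 20.1%, 16.6% and 19.8% lower in the FACS, PE and CS pairs. Of the abundant zinc enzymes, 2 of 5 were higher and 1 lower in all 3 comparisons. Carbonic anhydrase 2 (Car2) was at 1413 CPM in FACS CFU-E and 426 CPM in FACS BFU-E, and Alad at 589 CPM and 228 CPM in the same pools. Car1 was lower, at 26.3 CPM in FACS CFU-E and 131 CPM in FACS BFU-E. Of the NRF2 targets, 2 of 5, 2 of 4 and 3 of 4 were higher and 0 lower. Gclc and Gclm were among the higher ones each time, whereas Hmox1, the stress-induced haem oxygenase, stayed under 2 CPM in all 6 pools. Of the hypoxia genes, 2 of 7, 1 of 7 and 3 of 7 were higher and 2, 2 and 1 lower.

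The PE and FACS pools of the hashed library were within 1.5-fold of each other for all members but Slc30a1. In PE-high against FACS CFU-E none of the 7 genes was higher and 1 was lower, where 3.48% of 8342 genes were higher and 0.719% lower. That gene was Slc30a1, at 68 UMIs in PE-high and 59 UMIs in FACS CFU-E, with a ratio of 0.653 (0.454 to 0.941). Mt1 had a ratio of 0.965 (0.935 to 0.996) and Slc39a8 one of 0.954 (0.860 to 1.06). Those of Mt2, Mtf1, Slc30a10 and Slc39a10 lay between 0.847 and 1.20. In PE-low against FACS BFU-E 0 of 7 genes were past 1.5-fold, where 2.24% of 8988 genes were higher and 2.21% lower. Mt2 came closest, at 111 CPM in PE-low and 76.6 CPM in FACS BFU-E, a ratio of 1.44 (1.29 to 1.61). The ratios of Mt1, Mtf1, Slc30a10, Slc30a1, Slc39a8 and Slc39a10 lay between 0.787 and 1.35.

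Between the 2 libraries the metallothioneins stood apart from the transporters. The comparison of CS pools with FACS pools was added after the values had been seen. Mt1 was 2.18 (2.11 to 2.24) times as high in CS CFUE as in FACS CFU-E and 2.01 (1.91 to 2.11) times as high in CS BFUE as in FACS BFU-E. Mt2 was 2.03 (1.94 to 2.12) and 2.49 (2.21 to 2.80) times as high. Slc39a8 was lower, with ratios of 0.659 (0.582 to 0.747) and 0.532 (0.338 to 0.812), and so was Mtf1 in CS CFUE, with 0.534 (0.445 to 0.641), against 0.710 (0.534 to 0.933) in CS BFUE. Slc30a1 had ratios of 0.520 (0.333 to 0.800) and 0.523 (0.211 to 1.14), the second on 8 UMIs in CS BFUE, with an interval that includes no difference. Slc30a10 had 0.781 (0.668 to 0.914) and 0.970 (0.508 to 1.77). Slc39a10 had ratios of 0.956 (0.702 to 1.30) and 0.953 (0.732 to 1.23).

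In CS CFUE against FACS CFU-E 2 of the 7 genes were higher and 3 lower, where 3.74% of 8206 genes were higher and 11.4% lower. In CS BFUE against FACS BFU-E 2 were higher and 2 lower, where 5.42% of 9030 genes were higher and 18.3% lower. Cox17 and Atox1, both copper chaperones, were higher too. Cox17 stood at 599 CPM in CS CFUE and 249 CPM in FACS CFU-E, and Atox1 at 280 CPM in CS CFUE and 136 CPM in FACS CFU-E. Library, stain and any difference in handling cannot be told apart here. Scaling by the median of ratios raised all log2 ratios by 0.22 for CS CFUE and 0.23 for CS BFUE over their FACS pools, and turned 145 higher and 217 lower genes at 50 CPM into 256 and 29 for CS CFUE, and 163 higher and 417 lower into 285 and 93 for CS BFUE. Under it the log2 ratio of Slc39a8 in CS CFUE was -0.38, short of 1.5-fold, and Slc39a10 had 0.15 and 0.16, opposite in sign to the values above, as had Slc30a10 in CS BFUE with 0.18.

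Mt1 was also read in cells with no UMI of the 9 hepatocyte genes, which marked the CITE-seq library. It was at 2010 CPM in 45 such cells of CS CFUE and 984 CPM in 151 of FACS CFU-E, and at 896 CPM in 56 of CS BFUE and 489 CPM in 207 of FACS BFU-E. The log2 ratios in these cells were 1.03 and 0.87, against 1.12 and 1.01 in all cells, and past 1.5-fold in both. The part of hepatocyte RNA in the CPM of all cells was not tested further. Among granulocyte-marked cells it was smaller: Mt1 was at 124 CPM in 35 cells of CS BFUE and 104 CPM in 77 cells of FACS BFU-E, a ratio of 1.20 (0.941 to 1.53), whereas the unmarked cells of these pools gave 2.00 (1.90 to 2.11).

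**Figure D5:**
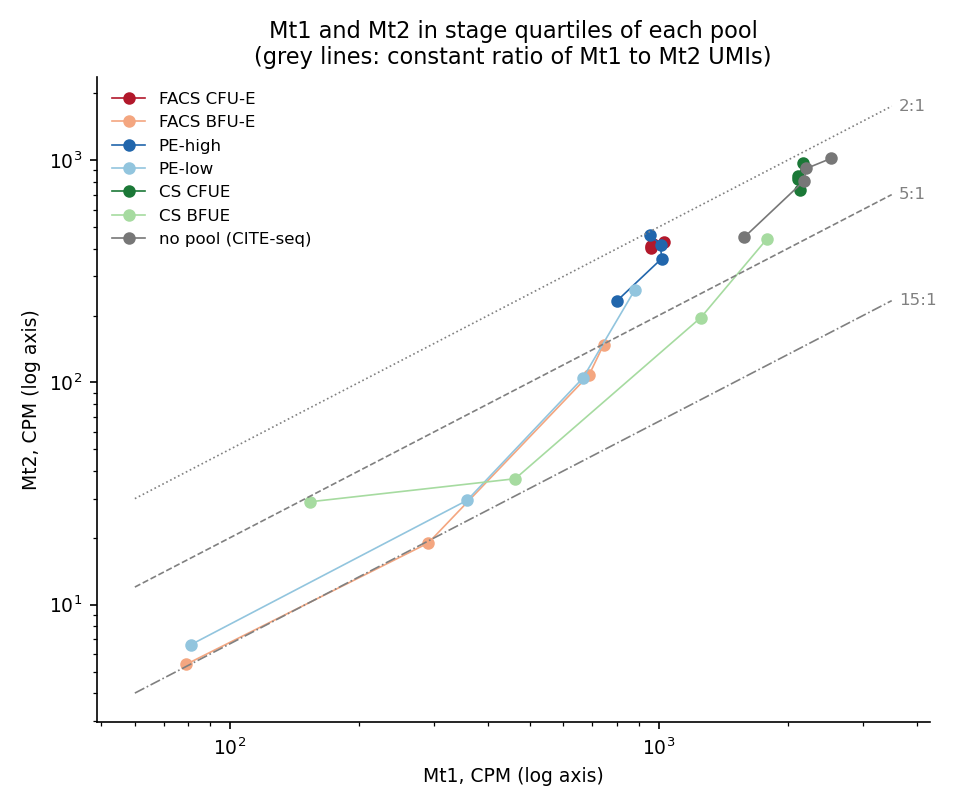
Mt2 against Mt1, both in CPM on log axes, in the stage quartiles of each pool, with grey lines of constant Mt1 to Mt2 proportion. From the second quartile on, the earlier pools climb across the lines towards fewer Mt1 UMIs per Mt2 UMI, and CS CFUE lies to the upper right of the later hashed pools near the same line.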

How the data were processed

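The deposited matrix holds 3357 cells and 17608 genes, as the natural log of 1 + counts per 10000 in each cell, per the file's values. The tools were Cell Ranger 4.0.0 and Scanpy and the build mm10, per the submitters' processing notes; pool names come from the authors' deposited cell table. UMI counts were recovered from the deposited log values: 16419767 of 16419767 nonzero values (100%) were whole within 0.02. The libraries shared 0 cell barcodes. UMIs were summed over the cells of a pool, with exact Poisson intervals for CPM, exact conditional binomial intervals for ratios and Clopper-Pearson intervals for shares (95%). Upper limits for shares of 0 were 3 counts over the number of cells. Ratios were called past 1.5-fold among genes with 50 CPM in 1 pool and 10% of cells, or with 5 CPM. As each pool is 1 sample, no test was made. Doublets were not called. The members and the 21 gene lists were chosen with earlier results of these data known. All 7 genes are named in every comparison, with up to 6 genes past 1.5-fold of each list, any gene of the metal lists, and the 5 genes most like Mt1, Mt2 and Slc30a10. The counting of called genes was tested on simulated data. Python 3.11.15, numpy 2.4.6, scipy 1.17.1, pandas 2.3.3 and matplotlib 3.10.9 were used. Alternatives were another scaling, other floors and folds, per-cell means, thinning to 15000 UMIs, and leaving out cells by markers or depth.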

Additional observations from a re-analysis of the deposited data

Results flagged for a closer look

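The log2 ratio of Slc30a1, the zinc exporter ZnT1, was -0.10 in PE-high over PE-low, opposite in sign to 0.88 in FACS CFU-E over FACS BFU-E and 0.87 in CS CFUE over CS BFUE. It rests on 68 UMIs in PE-high and 47 UMIs in PE-low, and the difference between these ratios was not tested.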

How the results depend on the processing

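No paired analysis was possible because each pool is 1 sample with no replicate number, and for the same reason no replicate could be left out. Log2 ratios and counts below run in the order FACS, PE and CS pairs, later over earlier pool. The 21 stage ratios of the 7 genes kept their direction in all 189 alternatives, 182 kept their side of 1.5-fold and 7 fell short of it. The cause of the shifts was not tested. Without filter the genes past 1.5-fold were 1500, 1239 and 1494 higher and 3099, 3877 and 3427 lower. With 20 CPM they were 565, 386 and 592 higher and 817, 582 and 697 lower. With 5 CPM, a floor chosen after seeing the data, they were 879, 650 and 1013 higher and 1809, 1489 and 1761 lower. Past 2-fold they were 145, 100 and 143 higher and 184, 117 and 147 lower. Without cells with 10 or more marker UMIs, 207, 142 and 168 were lower. That rule kept 146 of 167 cells of FACS CFU-E and 84 of 233 of FACS BFU-E.

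Mt1 had log2 ratios of 1.12, 0.93 and 1.23 with the median of ratios, 1.15, 0.93 and 1.28 as a mean over cells, 1.10, 0.91 and 1.25 when thinned, and 0.48, 0.41 and 0.54 without marker cells. Without the 5% deepest cells it had 1.10 (FACS) and 0.92 (PE), without the 5% of cells richest in the gene 1.15, 0.94 and 1.33, and with Egfl7 and Trf not used as markers, added after seeing the data, 0.58, 0.53 and 0.62. Mt2 had 2.58, 1.91 and 2.33 as a mean over cells, 2.60, 2.00 and 2.31 when thinned, 1.69, 1.14 and 1.47 without marker cells (1.88, 1.34 and 1.58 with Egfl7 and Trf not used), 2.01 (PE) without the deepest cells, 2.85, 2.08 and 2.53 without the richest cells, and 2.34 (CS) without cells with a hepatocyte UMI, also added later.

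Slc30a10 had 4.05, 3.72 and 4.38 without the richest cells, 2.26 (PE) without marker cells, 2.69 (FACS) with Egfl7 and Trf not used, and 4.08 (CS) without hepatocyte UMIs. Slc30a1 had 3.27 (CS) without the richest cells. CS BFUE had 8 Slc30a1 UMIs in 8 cells and 16 Slc30a10 UMIs in 12 cells. Leaving out the richest cells took out most of these cells, so both CS values of that setting rest on very few UMIs. Slc39a8 had 1.98 (FACS) and 1.43 (PE) without marker cells, 1.99 and 1.62 with Egfl7 and Trf not used, 2.19 (PE) when thinned and 2.21 (PE) without the richest cells. Slc39a10 had -1.20 (PE) when thinned and -1.92 (CS) without hepatocyte UMIs. In the comparisons of PE with FACS and CS with FACS pools, 238 of 252 alternatives kept the direction of the 28 ratios and 14 did not. Depth limits Slc30a1 most, with 8 to 68 UMIs in the named pools.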

Other observations

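A small set of cells held far more metallothionein than the rest, a set chosen after its values were seen. Of the 2136 CITE-seq cells with no pool name, 17 (0.796%, 0.464 to 1.27, Clopper-Pearson) had over 10000 CPM of Mt1. No cell of the 6 named pools did, and 0 of the 904 cells of the hashed library did. Taken as 3 counts over 904 cells and not as a Clopper-Pearson limit, this allows a share of up to 0.332%. These 17 cells held 6.33% of the Mt1 UMIs of their group, which stood at 2012 CPM of Mt1 and 763 CPM of Mt2 without them.

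Hepatocyte genes marked 2 of the 17 cells with 100 or more UMIs, and 15 had fewer. Among these 15 the Mt1 level had a median of 15768 CPM (10182 to 50642), and the Mt2 level one of 5660 CPM (2618 to 19446). The globin sum was above 10000 CPM in 11 of them, as it was in 242 cells of the group in all, and in 14 cells of the hashed library, none of which was rich in Mt1. Slc30a10 was at 63.9 CPM (40.5 to 95.8) in the 15 cells, against 82.6 CPM in the 231 other globin-rich cells and 42.3 CPM in all 2119 other cells of the group. Slc39a8 was at 103 CPM (72.3 to 142) in the 15 cells, against 113 CPM and 68.1 CPM. Slc30a1, a gene that zinc is known to raise, had 2 UMIs in the 15 cells, or 5.55 CPM (0.673 to 20.1), against 6.18 CPM in the other globin-rich cells and 5.80 CPM in all other cells of the group.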
